A study of Mus musculus with 96 samples.

Results

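Untreated C10 cells were compared by whether the transcript of Cdkn1a was seen in them. Of 96 single-cell libraries in the series, 48 came from untreated control cells. A filter of 50000 total counts and 1000 genes seen kept 29 of these. Cdkn1a reached at least 10 CPM (counts scaled to a library total of 1000000) in 16 of the 29, called detected cells here, and lay under 10 CPM in 13, called undetected cells. The sides were chosen on this measured level, so Cdkn1a itself supports nothing below and was left out of every gene list and count.

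C10 is a mouse lung line that the labels call alveolar type II epithelial. All libraries in the series were made with SMART-seq v4 from singly sorted cells of this line, and the control cells had no treatment. The other 48 cells had received RO-3306, sold as an inhibitor of the mitotic kinase CDK1, at 10 nM for 36 h. The labels name no culture, passage or animal, so each treatment is 1 sample, both sides come from it, and no test between sides was made.

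Cdkn1a encodes p21, an inhibitor of cyclin-dependent kinases that halts the cell cycle. The transcription factor p53, stabilised by DNA damage and other stress, is its best known activator and also switches on genes of repair, death, metabolism and its own feedback. Single cycling cells in culture are known to differ in p21, and p21-rich cells can pause after mitosis. These data hold transcripts only, so p21 and p53 protein were not measured.

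The labelled cell type was not borne out by its defining markers in the 29 control cells. The surfactant genes Sftpa1, Sftpb, Sftpc and Sftpd and the lineage factor Nkx2-1 had 0 counts on both sides. Of 11 alveolar type II genes 7 had no count, and the summed list reached at most 109 CPM in a cell. Of 7 epithelial markers 3 had no count, Krt8 and Krt18 among them, and Epcam was seen in 1 undetected cell, D10. The summed epithelial list reached 396 CPM in the detected cell A12 and 267 CPM in D10, the shallowest cells, and at most 2.45 CPM in the others, where a letter and number give a library's set and position in its title. Fibroblast-type genes were abundant on both sides: the collagen gene Col1a1 and the matrix gene Sparc were seen in 16 of 16 and 13 of 13 cells. The leukocyte marker Ptprc was at 0, but only 3 of 9 leukocyte genes had no count. The summed leukocyte list had medians of 4.7 CPM in detected and 6.1 CPM in undetected cells. It reached 314 CPM in the detected cell A3 and 244 CPM in the undetected cell C8. The summed mesenchymal list had a median of 12059 CPM per detected cell and 12103 CPM per undetected cell.

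Depth and complexity differed between the sides. Detected cells had a median of 2601489 counts (176892 to 6457215) and undetected cells 1490404 (59979 to 2752706). After thinning each cell to 500000 counts, which left out 2 detected cells and 1 undetected cell, detected cells had a median of 5264 genes with a count (3223 to 8918, n = 14). Undetected cells had a median of 3736 (1783 to 4904, n = 12). The medians therefore differed by 1528 genes at equal depth, and 8 of the 14 detected cells lay above every undetected cell. At full depth the medians were 5672 and 4574 genes. Mitochondrial genes took a median of 3.43% of counts in detected cells and 3.40% in undetected cells. Each gene list is given also for the 8 detected cells no deeper than the deepest undetected cell, a choice made after seeing the data. Their median depth was 1584560 counts, and the 6 of them that could be thinned had a median of 3727 genes at equal depth, against the undetected median of 3736.

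Cdkn1a had no count in 11 of the 13 undetected cells. A floor of 3 counts lay at 1.09 to 50.02 CPM in undetected cells, so a low level there could not be told from none. In detected cells its level ran from 11.3 CPM through a median of 76.2 to 443 CPM, and in undetected cells from 0 through a median of 0 to 1.65 CPM. Detected cells made up 55.2% of the control cells (exact Clopper-Pearson 95% interval 35.7 to 73.6%). Just outside the threshold were A2 at 0.727 CPM (2 counts) and C3 at 1.65 CPM (1 count). Just inside it were A12 at 11.3 CPM, B4 at 13.3 CPM, D9 at 14.7 CPM and A5 at 18.9 CPM. No cell lay between 1.65 and 11.3 CPM. The side of a pair of cells is uncertain: A12 rests on 2 counts of 176892, and D10, with 59979 counts, had none, which allows a level of up to 50.02 CPM. Intervals and floors here cover counting error only, since the reads carry no molecular identifiers.

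**Figure D1:**
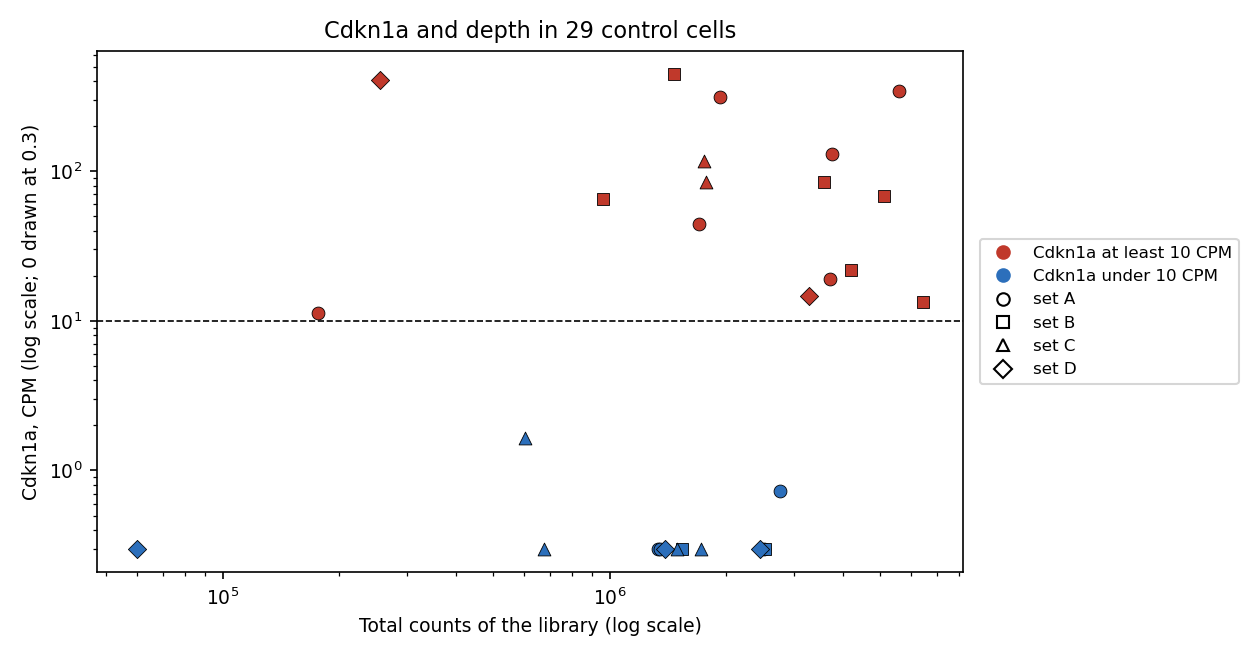
Cdkn1a level (CPM, log axis, 0 drawn at 0.3) against total counts (log axis) for each of the 29 control cells, with colour for side, marker for lettered set and a dashed line at 10 CPM. The 16 detected cells sit between 11.3 and 443 CPM, the 13 undetected cells between 0 and 1.65 CPM, and the cells deeper than 2752706 counts all lie on the detected side.

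Thinned to 500000 counts, 14 of 26 control cells were at or above 10 CPM, the same 14 that were detected at full depth. Thinning cannot move a cell with no Cdkn1a count, and A12 and D10 were too shallow for it. Spearman's rho between Cdkn1a and total counts was 0.29 over 29 cells, which share library preparation and culture. Each lettered set held both sides: 6 of 10 cells were detected in set A, 6 of 8 in set B, 2 of 6 in set C and 2 of 5 in set D. Among RO-3306 cells that passed the same filter, 35 of 37 were at or above 10 CPM (94.6%, interval 81.8 to 99.3%), with a median of 208 CPM.

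The counted Cdkn1a gene spans chr17:29309953-29319696 (GRCm39, the build of the count files) and shares no base with another gene span. RefSeq promoter windows of GRCm38.p6, 250 bases before to 50 after each annotated start, were read for it and the p53 target list, whose members other than Cdkn1a are described below. Windows were held for 40 of these 49 genes. They were searched for the 20-base p53 consensus element, a pair of decamers with no spacer, allowing 1 mismatch. The element reads the same on both strands, and the search covered 32851 windows. Of these, 29 held a match (0.0883%), and 4 of the 55 windows of Cdkn1a and the list did (7.27%). The list gathers known p53 targets, so such matches come with its making. The 4 are shown, with the matched bases in capitals, because the list genes among them were partly higher and partly level between the sides.
Cdkn1a: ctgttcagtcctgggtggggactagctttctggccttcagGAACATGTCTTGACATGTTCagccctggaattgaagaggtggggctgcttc
Ccng1: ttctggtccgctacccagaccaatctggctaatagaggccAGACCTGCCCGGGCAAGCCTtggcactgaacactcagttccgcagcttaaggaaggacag
Rps27l: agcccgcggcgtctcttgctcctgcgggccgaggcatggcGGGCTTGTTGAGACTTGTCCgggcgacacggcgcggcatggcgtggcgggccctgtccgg
Gtse1: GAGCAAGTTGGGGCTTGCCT
They lie at chr17:29090888-29090978 (plus strand), chr11:40755422-40755521 (minus), chr9:66946256-66946355 (plus) and chr15:85859945-85859964 (plus) in GRCm38.p6. All 4 are printed in the direction of transcription. Of the 3 list genes, Ccng1 was higher in detected cells by 1.47 on the log2 scale and Gtse1 by 1.23, while Rps27l was level at 0.01.

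Other p53 targets were mostly higher in the cells that held Cdkn1a. The value given for a gene is the log2 ratio of its CPM in counts summed over detected cells to that over undetected cells, with 1 CPM added to both, which understates ratios of low genes. Of 48 listed targets, 34 had a mean of at least 5 CPM, 3 (Pmaip1, Perp and Trp53i11) had no count, and 11 had counts below that level. Among the 34, 27 were higher in detected cells and 7 lower, where 52.9% of all 9056 genes of that level were higher. Their median was 0.90, against 0.07 over all genes. At least 2-fold higher were 15 of the 34, against 26.6% of all genes, and 4 were at least 2-fold lower, against 18.3%. With any 1 cell left out, 22 stayed above 0 and 3 stayed below, shares that were 37.6% and 19.4% over all genes. Genes that passed the level through the side in which they were high are part of these counts.

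The p53 targets were also mostly higher in shallow detected cells. With detected cells limited to the 8 no deeper than the deepest undetected cell, 24 of 33 measured targets were higher, against 45.2% of all genes, and the median was 1.03 against -0.16. That limit also left out B4, D9, A5 and B6, which had only 13.3 to 21.9 CPM of Cdkn1a, so it changed more than depth. Among genes of at least 50 CPM, 15 of 16 targets were higher, where 46.8% of 3921 genes were. Within the lettered sets 22 of 32 targets were higher in A (68.8%, against 53.6% of all genes) and 22 of 30 in B (73.3% against 66.0%). In C 17 of 21 were higher (81.0% against 48.1%) and in D 15 of 25 (against 56.4%), so that in B and D the share lay near the background. The list medians were 0.88, 2.48, 1.55 and 1.15 in A to D, beside 0.15, 1.31, -0.12 and 0.45 over all genes. Set B compares 6 cells with 2, and set C 2 cells with 4. Without the 4 targets that also sit in another list used here, 25 of 30 were higher.

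Per cell, the summed level of the list at 500000 counts ran from 2036 through a median of 4249 to 6544 CPM in 14 detected cells. In 12 undetected cells it ran from 1800 through 2573 to 3892 CPM. The sides overlapped, but 7 detected cells lay above every undetected cell and the detected cell was higher in 83.3% of 168 pairs. Those 7 cells were A1, A3, A7, A11, B8, B12 and C12, all with Cdkn1a of at least 44.01 CPM. The other 7 lay within the undetected range. Of these, B4, D9, A5 and B6, the thinned detected cells lowest in Cdkn1a, had list sums of 2648, 3228, 3016 and 3838 CPM. B5, B2 and C7, with Cdkn1a of 68.3, 84.1 and 84.6 CPM, had list sums of 3466, 3444 and 2036 CPM, although A7 and B12, with 44.01 and 65.5 CPM of Cdkn1a, lay above that range. A12, the detected cell lowest in Cdkn1a, and D2 were too shallow to be thinned. At full depth their list sums were 5541 and 6199 CPM, above the highest undetected cell at 3926 CPM. In the 6 detected cells of limited depth the median was 5850 CPM. The limit on depth had left out B4, D9, A5, B6, B5 and B2, all within the undetected range. It had also left out A1 and A3, which lay above that range. This median therefore does not reflect depth alone.

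**Figure D2:**
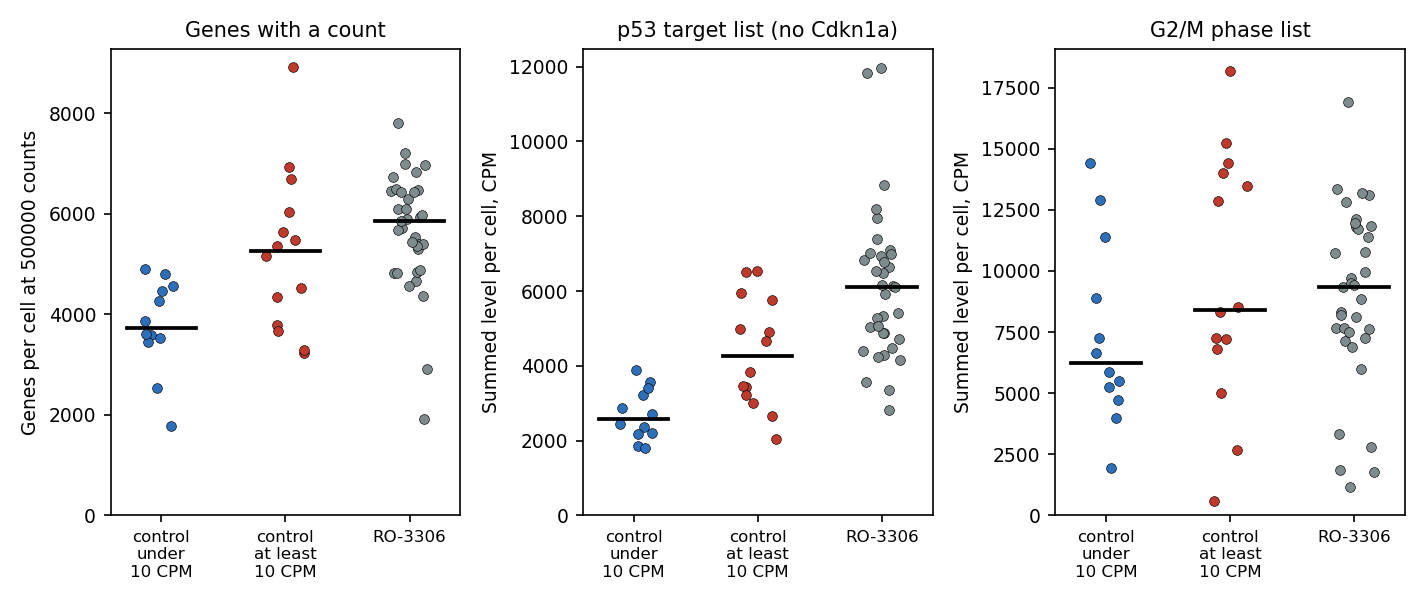
Genes with a count (left), summed p53 target level without Cdkn1a (middle, CPM) and summed G2/M level (right, CPM) for each cell thinned to 500000 counts, with 12 undetected and 14 detected control cells and 35 RO-3306 cells, and a bar at each median. Medians of the p53 list are 2573, 4249 and 6110 CPM, and 7 detected cells lie above the highest undetected cell.

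Within the detected side the rank of the list sum at full depth was related to that of Cdkn1a, with Spearman's rho of 0.53 over 16 cells, a description of cells that share a culture and library preparation. In the same cells rho of Cdkn1a with total counts was -0.14. The other lists ran from -0.38 for mesenchymal genes to 0.50 for DNA damage signalling, so a rho of this size was not particular to p53 targets. RO-3306 cells, which the choice of sides did not use, had a median list sum of 6110 CPM (2822 to 11958, n = 35) and a rho with Cdkn1a of 0.57 over 37 cells. There rho of Cdkn1a was 0.33 with total counts and 0.43 with genes seen. The other lists ran from -0.11 for interferon genes to 0.45 for S phase genes.

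Feedback genes of p53 were higher in the sums in 4 of 4 measured members, where 52.9% of all genes were. Their median was 0.95, but 3 of the 4 had a ratio under 0 in at least 1 set. Ccng1, which encodes cyclin G1 and acts in feedback on p53, ran from 0 through a median of 332 to 1486 CPM in detected cells and from 0 through 28.2 to 278 CPM in undetected cells. It had a count in 15 of 16 detected cells and 9 of 13 undetected cells. Summed, it stood at 301 CPM (Poisson 95% interval 296 to 306) against 108 CPM (103 to 112), a log2 ratio of 1.47 that ran from 1.27 to 1.69 with any 1 cell left out. The ratio was above 0 in each set (0.23 to 2.77), and the detected cell was higher in 79.8% of the 208 pairs of cells, with ties split evenly. That share was the highest of the 34 measured targets. Their median share was 60.8%, against 55.3% over all genes. It was over 50% in 30 of the 34, against 71.9% of all genes.

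Mdm2, the ubiquitin ligase that marks p53 for degradation, ran from 0 through a median of 54.4 to 1266 CPM in detected cells and from 0 through 0 to 220 CPM in undetected cells. It was seen in 12 of 16 detected cells and 4 of 13 undetected cells, at 92.9 against 31.8 CPM in the sums, a log2 ratio of 1.52. A single undetected cell, A2, held 93.7% of that side's Mdm2 counts. It is also one of the pair of undetected cells with any Cdkn1a count. Without 1 cell the ratio ran from 1.29 to 4.82, and in set A, which holds A2, it was -0.16. The ubiquitin ligase genes Rchy1 and Cop1 were at 0.33 and 0.43, and neither kept that direction throughout. Rchy1 was at -0.07 without B5 and 1.59 without A2, and -5.85 in set D. Cop1 was at -0.09 by mean over cells, 1.70 without C8 and -7.59 in set C. In the detected cells of limited depth Rchy1 and Cop1 were at -0.17 and -6.21, while Ccng1 and Mdm2 were at 2.14 and 2.19. Trp53, the gene of p53 itself and no member of the list, stood at 389 and 300 CPM, a log2 ratio of 0.37.

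Genes of growth arrest and restraint had the highest median by role, 2.32 over 6 measured members. Of these, 5 were at least 2-fold higher, against 26.6% of all genes. Plk2, a stress-induced polo-like kinase, was seen in 12 of 16 and 10 of 13 cells, at 277 and 121 CPM in the sums, a log2 ratio of 1.19 that was 0.05 at limited depth. Tob1, an antiproliferative factor, was seen in 8 of 16 and 2 of 13 cells, at 77.5 and 6.43 CPM, a log2 ratio of 3.40. A2 held 96.2% of its undetected counts, and without A2 the ratio was 5.94. Gtse1, a microtubule protein that restrains p53, reached 1.23, seen in 6 of 16 and 3 of 13 cells. It was at 2.50 without D8 and at -6.74 in set D. Btg2 and Trp53inp1 rested mostly on 1 cell each, which held 82.3% and 79.4% of the detected counts. Zmat3, an RNA-binding protein, was lower by 1.74, but that turned to 0.38 without B1 and to -4.87 without D9.

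Death genes were higher in 6 of 7 measured members, against 52.9% of all genes, with a median of 0.94. Fas, a death receptor, ran from 0 through a median of 228 to 1375 CPM in detected cells and from 0 through 0.360 to 629 CPM in undetected cells. It was seen in 15 of 16 and 7 of 13 cells, and the log2 ratio was 0.79, with 1.42 without B1 and -0.97 in set B. Bax, a pore-forming protein of the mitochondrial death pathway, was seen in 16 of 16 and 10 of 13 cells, at 207 and 161 CPM, a log2 ratio of 0.36. In set A Bax was at -0.61. Aen, a nuclease induced by p53, was seen in 11 of 16 and 4 of 13 cells, with a log2 ratio of 0.94 that was 1.70 without A9. In set B Aen was at -0.37. Apaf1, the scaffold of the apoptosome, had 58.2 against 0.147 CPM, but 71.3% of its detected counts came from 1 cell. Pidd1 had 99.4% of its counts in A5 and was at 0.19 without it. Bbc3 (Puma), with a count in 3 and 1 cells, was at -0.96 in the sums but at 1.93 by mean over cells, and its undetected counts all came from A2. It was at 2.62 without A2.

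Repair genes were divided. Rrm2b, a subunit of ribonucleotide reductase, was present in all 29 cells at 76.9 and 42.1 CPM, a log2 ratio of 0.85 that was -0.08 at limited depth and -0.08 in set A. Its counts were fractional in 100% of these libraries, so reads shared with other sites are among them. Gadd45a, a stress sensor, was seen in 9 of 16 and 4 of 13 cells, with a log2 ratio of 1.05 that was 1.66 without A9. Its span shares 34.99% of its bases with other gene spans, where reads are left out. Pcna, the replication clamp, was lower by 0.29 and stayed lower with any 1 cell left out (-0.55 to -0.15), but was at 0.17 in set C. Rps27l, a ribosomal protein gene named as a p53 target, gave 26.2% of the list's summed CPM and had medians of 925 and 983 CPM, with a log2 ratio of 0.01.

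Metabolic and stress genes of the list were higher in 8 of 11 (72.7%, against 52.9% of all genes). Ephx1, an epoxide hydrolase, was seen in 16 of 16 and 10 of 13 cells, with medians of 200.3 and 64.2 CPM and a log2 ratio of 0.60. In set D Ephx1 was at -0.12. Phlda3, an inhibitor of the kinase AKT, was seen in 15 of 16 and 8 of 13 cells, with a log2 ratio of 0.49 that was -0.96 in set C. Pltp, a phospholipid transfer protein, was seen in 10 of 16 and 3 of 13 cells, with a log2 ratio of 1.97. C8 held 91.2% of its undetected counts, and without C8 the ratio was 4.87. Eda2r, a receptor of the TNF receptor family, had a count in 7 of 16 detected cells and none of 13 undetected cells. Pooled over cells, its 38.01 CPM lay 258-fold above a floor of 3 counts over the undetected side. That figure covers counting error only, not the spread between cells, and the detected median was 0 CPM. On the other side, Sesn2, which is also a stress response gene, was lower by 2.58 and Gls2, a glutaminase, by 4.90, each seen in 5 or fewer cells of either side. Sesn2 was at -1.59 without A2 and -4.59 without C12, and Gls2 at -4.16 without B10. In set C Sesn2 was at 5.41. Tigar was lower by 2.01, but its undetected counts all came from D7, and without D7 it was at 2.92.

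**Figure D3:**
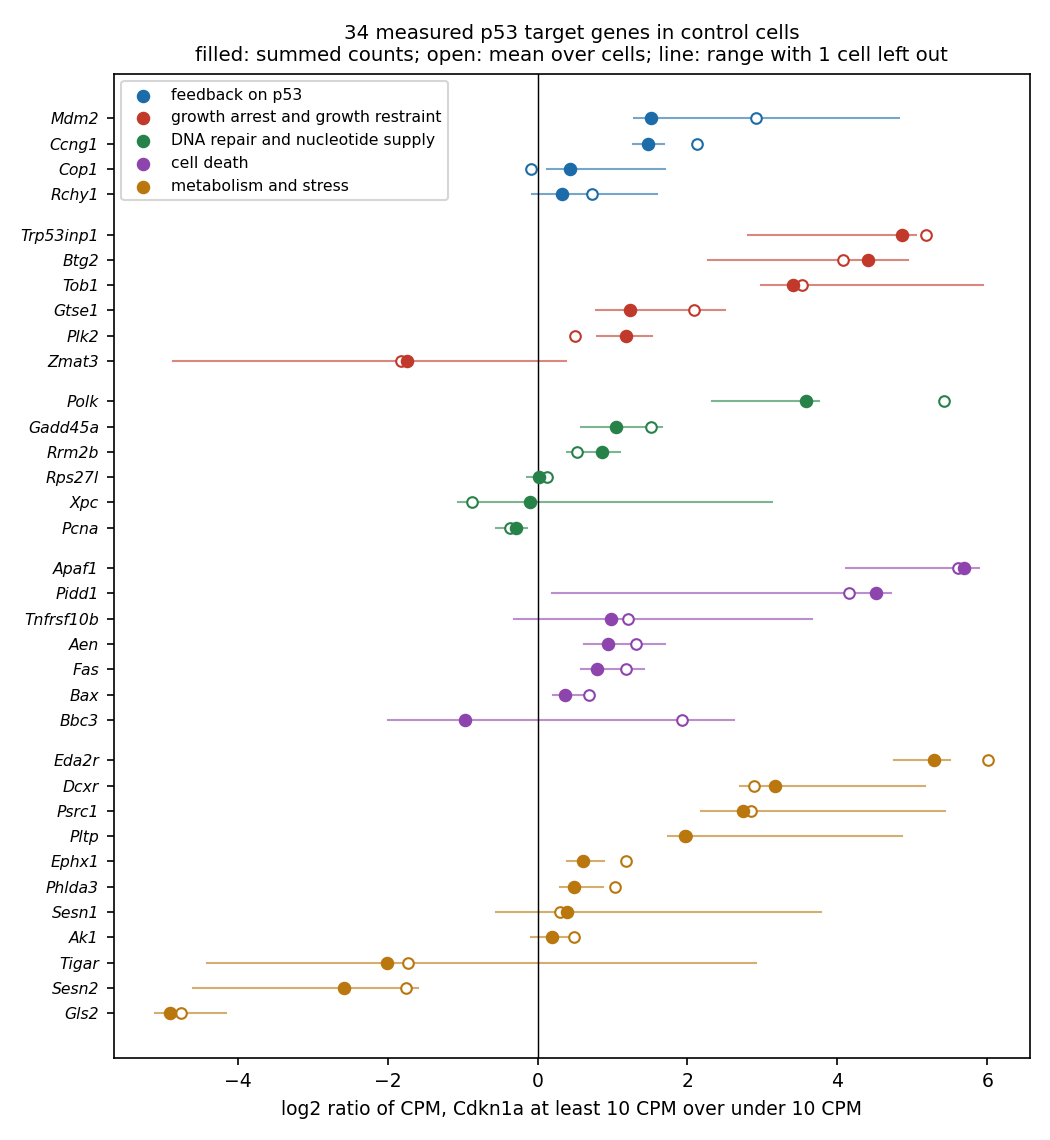
Log2 ratio of detected to undetected cells for the 34 measured p53 targets, grouped by role, from summed counts (filled) and from means over cells (open), with a line for the range when 1 cell is left out. Of the filled points, 27 lie above 0, and Ccng1 and Ephx1 have short lines on that side while Rchy1, Zmat3, Bbc3 and Tigar are among those with lines that cross 0.

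Of 7 other inhibitors of cyclin-dependent kinases listed, 3 reached 5 CPM, with a median of 0.02. At limited depth their median was -0.41, and 0 of 3 were higher, against 45.2% of all genes. Cdkn1b (p27), the closest relative measured, averaged under 5 CPM, with 7.38 against 0.0490 CPM, and was seen in 5 of 16 and 1 of 13 cells, with B6 holding 63.2% of the detected counts. Cdkn1c and Cdkn2b had no count, and Cdkn2a had counts in 1 undetected cell. The Cdkn2b span shares 100% of its bases with other gene spans, where reads are left out, so its level was not measured. Cdkn2c, an INK4 inhibitor of CDK4 and CDK6, was lower by 0.79 in the sums, yet was seen in 13 of 16 and 8 of 13 cells, and B1 held 66.4% of the undetected counts, without which it was at 0.59. Cdkn2d and Cdkn3 were at 0.13 and 0.02, and with 1 cell left out they ran from -0.24 to 0.61 and from -0.42 to 1.17.

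Genes of the G1 cyclins, their kinases and the RB-E2F axis were higher in 9 of 17, a share of 52.9% that equals the background. At limited depth 7 of 17 were higher, against 45.2% of all genes. Ccnd3, a D-type cyclin, was higher by 0.99, seen in 15 of 16 and 8 of 13 cells, while Ccnd2 was lower by 0.83. Cdk4, the partner of D-type cyclins, was present in every cell with medians of 707 and 891 CPM and a log2 ratio of -0.31. Cdk6 was higher by 1.19 (2.07 without B10) but at -1.42 at limited depth. Rbl1, the pocket protein p107, was higher by 3.57, 2.72 without B4 and 4.30 without A9, and by 0.86 at limited depth. Ccne2, a cyclin of S phase entry, had a count in 5 detected cells and none of the undetected. Its pooled level lay 133-fold above the floor of 3 counts, which covers counting error only, and its detected median was 0 CPM. Of its span, 44.5% is shared with other gene spans.

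S phase genes were higher about as often as lower. Of 42 measured, 19 were higher in detected cells, against 52.9% of all genes, with a median of -0.04. At limited depth 15 of 40 were higher, against 45.2% of all genes, with a median of -0.33. The summed list at equal depth had medians of 4878 CPM (760 to 6498) and 4209 CPM (1268 to 8288), and no detected cell lay above the highest undetected one. Members pointed both ways: the helicase subunits Mcm5 and Mcm4 were lower by 1.51 and 1.04, and the deubiquitinase Usp1 and the chromatin remodeler Hells higher by 3.04 and 2.13. Without B1 Mcm4 was at -0.29, without D8 Usp1 was at 4.31, and without A9 Hells was at 3.39. At limited depth Hells was at -1.33 and Usp1 at 1.76.

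By count, more mitotic genes than not were higher in the full comparison but not when depth was limited. Of 55 G2/M genes, 44 were higher in detected cells, against 52.9% of all genes, with a median of 0.48. At least 2-fold higher were 21 of them, against 26.6% of all genes. Ube2c, a ubiquitin-conjugating enzyme of mitotic exit, had medians of 701 and 144 CPM and a log2 ratio of 1.34, which was 2.05 without D8 and -2.66 in set D. Top2a, a topoisomerase, was higher by 1.78 (1.03 without B4, 3.56 without A10) and Kif11, a spindle motor, by 1.43 (4.04 without D8). Mki67, the proliferation marker, was at -1.06, but D8 held 67.4% of its undetected counts. Without D8 Mki67 was at 0.36, and it was at 5.35 in set A and 5.08 in set B. Cdk1 and Ccnb1, the kinase and cyclin of mitotic entry, were at 0.27 and 0.38, and Ccnb1 was at -0.17 without B4 and -0.81 at limited depth. In the 8 detected cells of limited depth the count was 22 of 50, a median of -0.08, near the 45.2% of all genes. With the threshold at 50 CPM of Cdkn1a it was 26 of 55, where 47.6% of all genes were higher. Without set B it was 29 of 51, where 51.4% of all genes were. Within set D it was 11 of 45 (24.4%), well under the 56.4% of all genes there. The summed list ranged from 582 to 18190 CPM over detected cells and from 1946 to 14412 CPM over undetected cells at equal depth, with medians of 8421 and 6252, so both sides held cells with high and with low mitotic transcripts. Per cell, the 6 detected cells of limited depth had a median of 7785 CPM, which is above the undetected median although the count of genes is not above the background.

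Genes of DNA damage signalling were higher in 15 of 18, against 52.9% of all genes, with a median of 0.99. At limited depth 12 of 16 were higher, against 45.2% of all genes, with a median of 0.82. The checkpoint kinase gene Chek2 was seen in 9 of 16 and 2 of 13 cells, with a log2 ratio of 1.64 that was 5.87 without D7, which held 97.9% of the undetected counts. The mediator Mdc1 was seen in 10 of 16 cells and 1 of 13, at 28.8 and 0.0898 CPM, and the repair ATPase Rad50 in 8 and 3 cells, at 62.4 and 0.736 CPM. A11 held 45.5% of the detected Mdc1 counts. Rad50 was at 5.19, and at 4.52 without B6, but at -0.66 at limited depth. The kinase genes Atm and Atr were at -0.02 and 0.06, but Atm was at 4.55 without B1 and -0.76 without C7, and Atr at 1.89 without D10 and -1.01 without B4. The mediator Trp53bp1 was at -1.27, and at 0.06 without C2. Without B4, the deepest cell, the count was 11 of 17 (64.7%, against 51.9% of all genes) and the median 0.50. The summed level per cell overlapped widely, from 376 to 2618 CPM in detected cells and from 184 to 1736 CPM in undetected cells at equal depth.

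For the other lists, the share of all genes higher was 52.9% in the sums, 53.8% by mean over cells and 45.2% at limited depth. TGF-beta responsive genes were higher in 11 of 14 (median 0.37), in 8 of 14 by mean over cells and in 5 of 14 at limited depth, with a median there of -0.50. Interferon genes were higher in 5 of 5 (median 3.07) and in 4 of 4 at limited depth (2.80). The interferon factor Irf1 was higher by 1.38 (2.17 without B1), seen in 11 of 16 and 5 of 13 cells, and Bst2 was at 18.7 and 0.0490 CPM. With the threshold at 50 CPM the interferon median was -0.16. Quiescence genes, among them parts of the DREAM complex, were higher in 3 of 12, with a median of -0.74, and in 3 of 11 at limited depth (-2.40). Within sets A to D they were higher in 5 of 10, 6 of 10, 4 of 8 and 3 of 7, against 53.6%, 66.0%, 48.1% and 56.4% of all genes. The medians there were -0.28, 1.27, -0.16 and -2.86, so the lower level did not hold in every set. By pairs of cells, the detected cell was higher in a median of 55.0%, against 55.3% over all genes. Integrated stress response genes were higher in 9 of 17, NRF2 targets in 6 of 14, the BCL2 family in 4 of 8, immediate early genes in 6 of 14 and mesenchymal genes in 8 of 16. At limited depth these counts were 8 of 16, 5 of 13, 5 of 8, 7 of 14 and 5 of 15, in the same order. Secreted factors of senescence were higher in 5 of 10, and in 7 of 10 at limited depth. Of these, the chemokine genes Ccl2 and Ccl7 were at 1.27 and 1.20 in the sums but lower in the detected cells by median, 353 against 397 CPM and 572 against 679 CPM. Ccl2 was at 0.66 without A3 and 1.87 without B10. Il6, Il1a, Il1b and Mmp3 had no count in any of the 29 cells. Housekeeping genes were higher in 9 of 12, with a median of 0.10, and in 8 of 12 at limited depth (0.18).

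**Figure D4:**
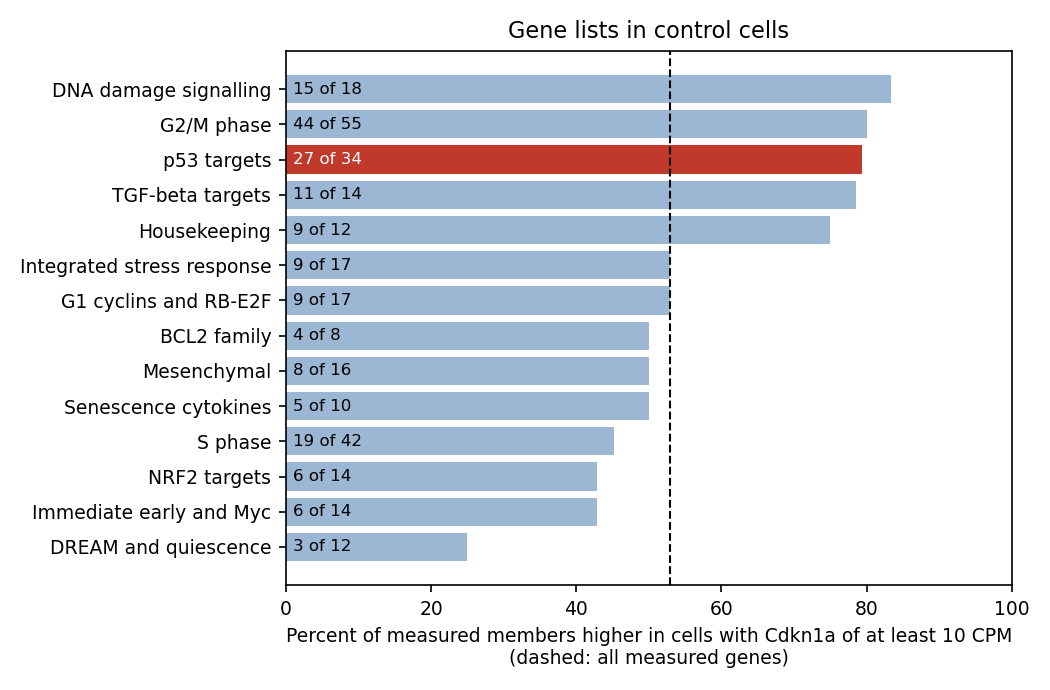
Percent of measured members with a higher summed CPM in detected cells, for each list of at least 8 measured genes, with the number of members in each bar and a dashed line at the 52.9% of all measured genes. The DNA damage genes (15 of 18), G2/M genes (44 of 55), p53 targets (27 of 34), TGF-beta responsive genes (11 of 14) and housekeeping genes (9 of 12) lie to the right of the line and the quiescence genes (3 of 12) to the left.

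Outside the lists, a rule of size picked genes of at least 50 CPM. It asked for at least a 2-fold difference in sums and in means over cells and for the same sign after thinning and with any 1 cell left out. The gene also had to be seen in 50% or more of the higher side. Higher in detected cells by that rule were 285 of 3921 genes (7.27%) and lower were 155 (3.95%). In the sums alone, 400 of these genes (10.2%) were at least 2-fold higher and 472 at least 2-fold lower. The 10 highest were Ccny, Ddx52, Yme1l1, Msmo1, Ckap2l, Ktn1, Abcf3, Rab27b, P4ha2 and Lpcat4, with log2 ratios of summed CPM from 3.27 to 6.39. Ccny, a membrane-bound cyclin, ran from 0 through 51.2 to 442 CPM in detected cells and from 0 through 0 to 14.1 CPM in undetected cells, and was seen in 11 of 16 and 2 of 13. Its log2 ratio was 5.84, and 6.72 without A10. Yme1l1, a protease of the inner mitochondrial membrane, was seen in 13 of 16 and 6 of 13 cells, at 115 and 1.67 CPM, a log2 ratio of 5.44 that was 6.17 without D8. Msmo1, an enzyme of cholesterol synthesis, was seen in 8 of 16 cells and 1 of 13, at 103 and 3.09 CPM, a log2 ratio of 4.67 that was 6.70 without C8. Ckap2l, a spindle protein, was at 3.27 and at 6.79 without D8, turned to -0.19 without set B and, with Ktn1 and P4ha2, lay below 0 with the threshold at 50 CPM. Within sets, Ckap2l was at -2.24 in D and Ktn1 at -0.10 in C. Of the Rab27b span, 48.9% is shared with other gene spans, and without B10 its ratio went from 4.66 to 6.70.

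The 10 lowest were Dab2, Vps4a, Ash2l, Ip6k1, Tipin, Nedd4l, Klf3, Rad17, Bclaf1 and Lsm14a, with log2 ratios of -3.76 to -1.12. All 20 genes of both directions kept their sign at limited depth. That comparison reuses the 13 undetected cells and 8 of the detected cells that picked these genes, so it is no separate support. Vps4a, an ATPase of membrane scission, was seen in 11 of 16 and 7 of 13 cells, at 9.60 and 142 CPM, a log2 ratio of -3.76 that was -2.76 without B1 and -4.64 without B2. Ash2l, a subunit of histone H3 lysine methyltransferases, was seen in 5 of 16 and 7 of 13 cells, at 18.9 and 146 CPM, a log2 ratio of -2.88 that was -4.11 without B4. Klf3, a transcriptional repressor, had medians of 1.34 and 130 CPM and a log2 ratio of -2.24 that was -1.14 without C3. Ip6k1 was at -2.58, -3.94 without B4 and -1.38 without D7, but at 3.79 in set B. Nedd4l was at -2.01, -3.21 without D9 and -0.95 without C3, but at 2.47 in set A and 2.91 in set D. Dab2, Tipin and Bclaf1 reached 33304, 21908 and 6294 CPM in D10, the shallowest cell. Without D10 their ratios of means over cells were -1.06, -0.66 and -0.75, against -4.55, -3.62 and -2.97 with it. Tipin and Bclaf1 thus fell short of the 2-fold rule without D10. By per-cell median Dab2 was higher in detected cells, 58.8 against 5.56 CPM, as was Lsm14a, 6.23 against 5.32 CPM. Rad17 went from -2.50 to -0.79 without C8 and to 0.35 without set C. Within sets, Rad17 was at 1.70 in B and 5.81 in D, and Lsm14a at 0.30 in A and 5.55 in D. Bclaf1 was at 0.93 in B and Vps4a at 0.52 in C. Dab2, Ash2l, Tipin and Klf3 lay below 0 in each set.

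Among the genes of at least 50 CPM whose level ranked most like Cdkn1a over the 29 cells were Cd63, Yme1l1, Psmb5 and Ccndbp1, with Spearman's rho of 0.60 to 0.62. The median over all genes of that level was 0.07. Cd63, a tetraspanin of late endosomes, was present in every cell, from 1403 through 2470 to 3789 CPM in detected cells and from 1017 through 1666 to 2085 CPM in undetected cells. The sides overlapped. These genes were picked for their likeness to Cdkn1a over the same cells, so a difference between the sides comes with the choice. Psmb5, a proteasome subunit, had medians of 111 and 68.9 CPM. Ccndbp1, a cyclin D binding protein, was seen in 11 of 16 and 2 of 13 cells, with a log2 ratio of -1.54 in set B.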

How the data were processed

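The authors deposited 1 file of expected counts per library. Per the file headers, they used featureCounts 2.0.3 on GRCm39 with its RefSeq annotation, and the headers record counting over whole gene spans, introns included. They also record that reads placed at several sites were shared out as fractions. Of the kept control libraries with any count of the gene, 91.3% held a fractional count for Vps4a and 88.2% for Cop1. By the tool's defaults strand is ignored and reads over more than 1 gene span are left out. The submitters' processing notes also name STAR and FastQC, with no version. Each file lists 40202 genes, and 1 library is 1 cell, sequenced as single reads of 150 nt.

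Control cells with at least 50000 counts and 1000 genes were split at 10 CPM of Cdkn1a. Kept cells held 59979 to 6457215 counts, 45646209 over the detected side and 20387870 over the undetected side. No pair of kept libraries was identical. Counts were summed per side, and the ratio used a pseudocount of 1 CPM and genes averaging 5 CPM or more. Fractional counts were rounded for intervals and thinning. Cells were not treated as replicates, and no test was run. The 19 control libraries below the filter entered no comparison. Doublets were not called, since cells were sorted singly.

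Named genes are the 10 highest and the 10 lowest by ratio of means over cells among genes that met the rule of size given with them. To these come the 5 genes of at least 50 CPM with the highest Spearman correlation with Cdkn1a and members of the lists. Of the 5, 1 is not reported here. The members and lists were chosen with earlier results of these data known. Lists covered p53 targets, CDK inhibitors, G1 cyclins, S phase, G2/M, quiescence, DNA damage, BCL2 family, immediate early, TGF-beta, stress response, NRF2, senescence factors, interferon, mesenchymal, alveolar, epithelial, leukocyte, endothelial and housekeeping genes. Alveolar type I genes were higher in 1 of 4 measured. The 2 measured alveolar type II genes and the 2 measured leukocyte genes were higher, and no epithelial or endothelial gene reached 5 CPM.

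Alternatives varied the threshold, depth, weighting, pseudocount, level filter, scaling (edgeR 4.0.16 TMM and DESeq2 1.42.0 size factors), sets and single cells. The cells limited in depth and the cells without A12, D10 and C3 were chosen after seeing the data, as were the values without B4 or D10 and the genes per cell with each cell left out. Sums and ratios were tested on simulated data. Thinning was checked on a real control library, and only for its total. Software was numpy 2.4.6, scipy 1.17.1, pandas 2.3.3 and matplotlib 3.10.9 in Python 3.11.15, and R 4.3.3 for the scaling factors.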

Additional observations from a re-analysis of the deposited data

How the results depend on the processing

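No paired analysis was possible because the replicate numbers are accession order, both sides come from 1 sample and no test was made. Over 44 results recomputed 1925 times in all, 1743 values stayed close to the reported one, 175 moved and 7 were counted as reversed. A list median below 2-fold in size was never counted as reversed, so more than these 7 values changed sign. Among such medians, G2/M genes went from 0.48 to as low as -0.08 and TGF-beta genes from 0.37 to -0.50. Senescence factors went from 0.41 to -0.22, and alveolar type I genes from -0.80 to as high as 0.25. At a Cdkn1a threshold of 50 CPM, 34.5% of cells were detected, 1547 genes were at least 2-fold higher (2406 as reported), 26 G2/M genes were higher, the interferon median was -0.16, and Ckap2l, Ktn1 and P4ha2 were at -0.15, -0.25 and -2.05. Among genes of at least 50 CPM, 400 were at least 2-fold higher, 472 at least 2-fold lower and 15 p53 targets higher, of fewer genes measured. With no level filter 3913 genes were at least 2-fold higher. With detected cells limited in depth, 2770 genes were at least 2-fold lower (1661 as reported), 22 G2/M genes were higher and the difference in genes per cell at equal depth was -9.0 (1528 as reported), and the cause was not tested. Without set B 29 G2/M genes were higher and Ckap2l was at -0.19, and without set C Rad17 was at 0.35. Leaving out each cell in turn gave 25 to 29 p53 targets, 17 to 24 S phase genes and 37 to 48 G2/M genes higher, with 2287 to 2623 genes at least 2-fold higher and 1640 to 1815 lower. Leaving out each cell gave differences in genes per cell of 1406 to 1650, and the other depths, count minimums and sets gave 1063 to 1589.5. TMM and size factors gave 26 p53 targets higher each. At this depth a gene seen in few cells cannot be told from one missed in the others.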

Other observations

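The 19 control libraries below the filter held up to 47767 counts each. Together they had 2.25 Cdkn1a counts in 341166, a sum of 6.60 CPM that lies under the floor of 3 counts (8.79 CPM).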
